A study of Mus musculus with 24 samples.

Results

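The SREBP transcription factors and the proteins that hold, escort and cleave them were followed in mouse liver as 7 genes: Srebf1, Srebf2, Scap, Insig1, Insig2, Mbtps1 and Mbtps2. Every probe set that the platform annotation assigns to exactly 1 of these symbols was taken, which gave 13 of the 45101 probe sets and 7 of the 18193 genes measured. Livers came from male C57BL6J mice that had first been kept on low-fat food, and 1 array was run per mouse. In the LF group 6 mice stayed on low-fat food. In the HF group 6 mice received food with 45% fat, and in the HF+P group 6 mice received that high-fat food with 5% powder of propagules (bulbils) of Japanese yam. All groups ate freely for 4 weeks and were starved for 16 h before dissection, so every value below is from a fasted liver; their age is not given in the labels used here. The same 6 HF arrays were processed once with the LF arrays and once more with the HF+P arrays, so the comparisons of HF with LF and of HF+P with HF share their HF mice and each uses its own set of values.

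SREBPs are made as precursors anchored in the membrane of the endoplasmic reticulum (ER). Scap, a sterol-sensing escort, carries them to the Golgi when ER cholesterol is low, while Insig1 and Insig2 bind Scap and keep the complex in the ER when sterols are plentiful. In the Golgi the site-1 protease (Mbtps1) and the site-2 protease (Mbtps2) cut the precursor in turn, and the freed amino-terminal part enters the nucleus. In liver the protein from Srebf2 is known mainly for switching on cholesterol synthesis and uptake, and the short-isoform protein from Srebf1 for switching on fatty acid synthesis after feeding. The arrays measured RNA of these genes and not the cleavage of their proteins.

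The deposited values were taken as log2 from their range, the log base not being stated in the labels used here, and most probe sets differ very little between the arrays of a value set: the median SD over 12 arrays was 4.17e-06 with LF and HF and 4.27e-06 with HF and HF+P. Values per mouse are therefore given below as millionths of a log2 unit above or below the HF mean of the same value set, and no fold changes are given. Sizes are standardized differences, the difference of the group means in pooled within-group SDs after the small-sample correction of Hedges, with a 95% interval. The list of 7 measured hepatocyte markers sat at the 98.6th percentile of probe set levels or above. Markers of Kupffer cells and macrophages were higher in HF than in LF for 8 of 8 genes (median 0.63 SDs, 0 passed) and those of lymphocytes for 7 of 7 (median 0.81 SDs, 0 passed). Of the 7 hepatocyte markers 5 were lower in HF (median -0.56, 0 passed). Of 8 sinusoidal endothelial markers 5 were lower and 3 higher (median -0.50; 1 passed, downward), from -2.53 for Tek to 1.97. The macrophage score of a mouse, the mean deviation of the markers from the HF mean in pooled SDs, ran from -1.54 to 0.88 in LF and from -1.004 to 1.77 in HF, with HF mouse 3 highest, and the lymphocyte score from -1.16 to -0.46 in LF and from -0.50 to 1.06 in HF; the part of these cells in the results below was not tested. In RNA of whole liver pieces, fewer cells of a type and less RNA per cell cannot be told apart.

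High-fat feeding was compared with low-fat feeding to read the difference between the diets. Insig1 rose in HF livers, Insig2 fell, and Srebf1 and both proteases did not pass the test. Srebf2 rose by both of its probe sets, though centring each array on its median turned the sign of the one that represents the gene (-1.33) and not of the other (3.34). Scap rose as well by its representative probe set, with the sign turned by the same centring (-1.34). Centring each array on the median deviation of its probe sets instead left Srebf2 at 2.92 and Scap at 3.06. Quantile normalisation turned the sign of the representative probe set of Srebf2 (-2.82). By limma with Benjamini-Hochberg adjustment over all genes, 4 of the 7 genes passed a threshold of 0.05, 3 upward and 1 downward, where 1.82% of all genes passed (124 upward or 0.682%, and 208 downward or 1.14%). With every probe set tested on its own, 7 of 13 passed (4 upward and 3 downward), against 0.671% of all probe sets (0.269% upward and 0.402% downward). The count of 4 was 1 without LF mouse 3 or 5 and 2 without LF mouse 1, HF mouse 4 or HF mouse 8. Among the 7 genes 1 was higher and 2 lower after quantile normalisation, and 1 was higher and 5 lower after centring on column medians, Insig1 being the higher one in both. The split over all genes depends on scaling too: 131 rose and 3214 fell after quantile normalisation, and 231 rose and 15857 fell after centring on column medians. That centring subtracts a gap of 3.36e-05 between the column medians of HF and LF, where the median SD was 4.17e-06. The median deviation of probe sets differed by only -2.52e-08, and after centring on it 121 genes rose and 204 fell.

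**Figure D1:**
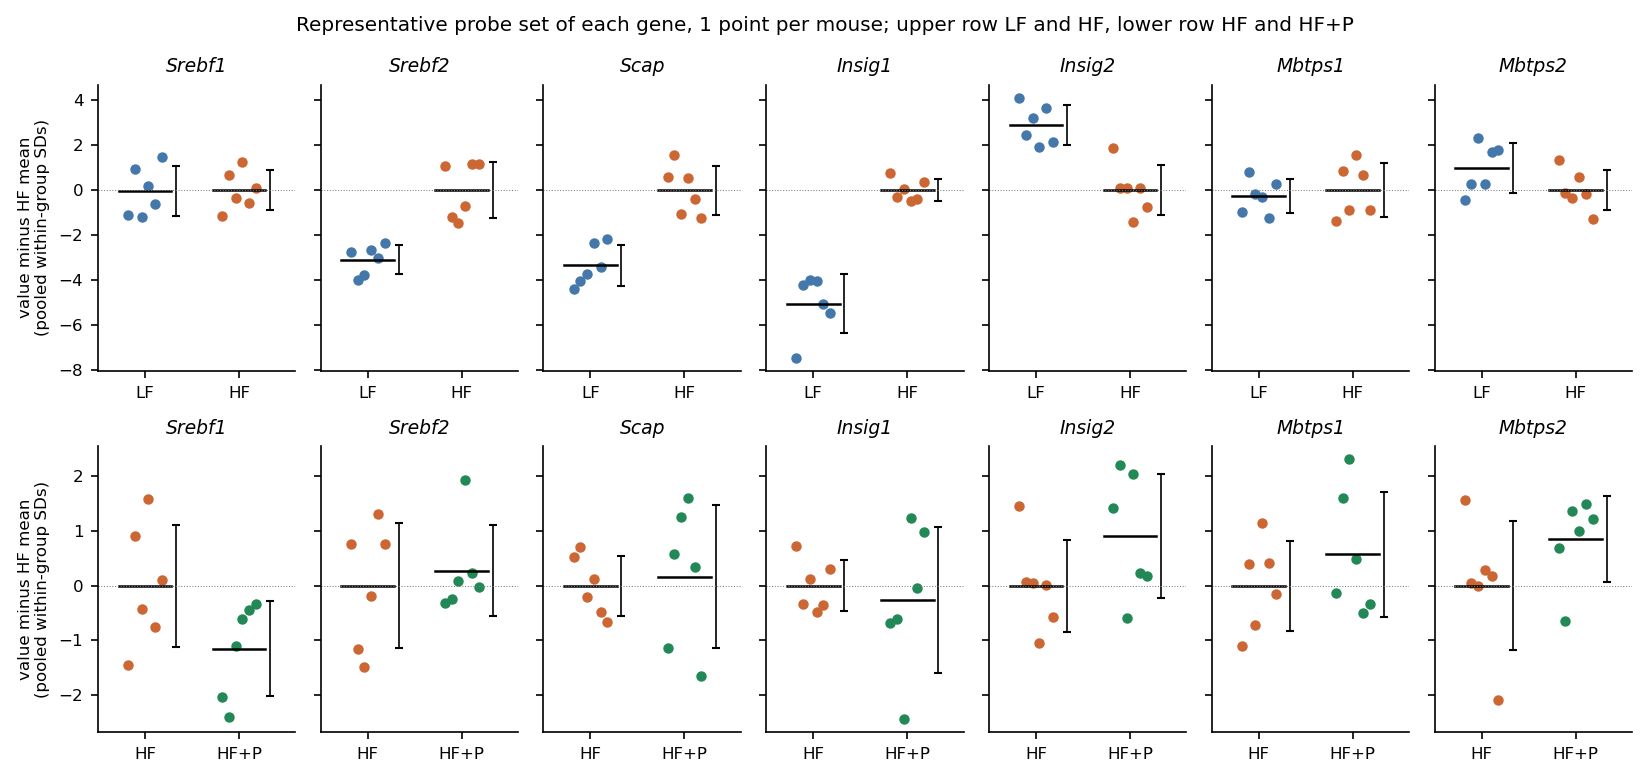
Value of each mouse minus the HF mean, in pooled within-group SDs (vertical axis), for the probe set that represents each gene; the upper row shows LF and HF mice, the lower row HF and HF+P mice, bars are means and whiskers are 1 SD (n = 6). In the upper row Insig1 (4.65) and Insig2 (-2.68) separate LF from HF in opposite directions. Srebf2 and Scap separate upward, with signs turned by centring on column medians (-1.33 and -1.34) but not on the median deviation (2.92 and 3.06). Quantile normalisation also turned the sign of Srebf2 (-2.82) and left no value to compare for Scap. In the lower row no gene separates HF from HF+P.

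The promoters of the genes that separated the groups are shown because Insig1 and, by probe set 1426744_at in every setting, Srebf2 rose while Insig2, close kin of Insig1 in function, fell. Scap is shown beside them because its representative probe set also separated the groups, with a sign that turned after centring on column medians (-1.34). Each run holds the 250 bases before an annotated start (RefSeq, GRCm38.p6, 5′ to 3′ on the strand of the gene). Capitals mark matches on either strand to CCAAT (bound by NF-Y), GGGCGG (bound by Sp1), TCACCCCA (a sterol regulatory element core) and CACGTG (an E-box). The coordinates are chr5:28071162-28071411 (plus strand) for Insig1 and chr15:82147019-82147268 (plus strand) for Srebf2. For Scap the run before the first of its 2 annotated starts is chr9:110333038-110333287 (plus strand). Insig2 has 3 annotated starts, all on the minus strand, with upstream runs at chr1:121327679-121327928, chr1:121328025-121328274 and chr1:121332590-121332839.
Insig1: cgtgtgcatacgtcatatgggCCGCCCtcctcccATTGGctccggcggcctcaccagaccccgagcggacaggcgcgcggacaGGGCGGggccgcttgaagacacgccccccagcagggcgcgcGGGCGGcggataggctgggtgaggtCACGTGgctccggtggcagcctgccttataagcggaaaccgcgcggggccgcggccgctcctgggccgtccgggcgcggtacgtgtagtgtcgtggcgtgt
Srebf2: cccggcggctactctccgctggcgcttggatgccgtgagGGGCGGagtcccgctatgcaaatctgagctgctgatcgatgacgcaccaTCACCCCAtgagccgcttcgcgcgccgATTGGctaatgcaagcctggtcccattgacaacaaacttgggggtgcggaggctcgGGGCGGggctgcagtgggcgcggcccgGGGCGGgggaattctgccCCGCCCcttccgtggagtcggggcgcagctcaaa
Scap start 1: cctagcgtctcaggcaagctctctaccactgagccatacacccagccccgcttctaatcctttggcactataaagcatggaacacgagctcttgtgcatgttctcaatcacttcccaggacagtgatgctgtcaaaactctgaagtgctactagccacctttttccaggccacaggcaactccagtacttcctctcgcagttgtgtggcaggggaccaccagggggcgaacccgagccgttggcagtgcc
Insig2 start 1: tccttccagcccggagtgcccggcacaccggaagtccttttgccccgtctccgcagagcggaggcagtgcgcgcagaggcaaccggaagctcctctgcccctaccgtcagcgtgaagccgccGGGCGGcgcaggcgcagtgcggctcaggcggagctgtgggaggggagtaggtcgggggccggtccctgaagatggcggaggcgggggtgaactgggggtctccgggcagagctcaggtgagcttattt
Insig2 start 2: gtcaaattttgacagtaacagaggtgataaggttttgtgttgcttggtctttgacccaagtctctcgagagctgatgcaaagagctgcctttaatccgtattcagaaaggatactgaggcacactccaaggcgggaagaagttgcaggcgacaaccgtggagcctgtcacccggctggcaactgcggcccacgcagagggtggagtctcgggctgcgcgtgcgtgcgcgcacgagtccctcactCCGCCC
Insig2 start 3: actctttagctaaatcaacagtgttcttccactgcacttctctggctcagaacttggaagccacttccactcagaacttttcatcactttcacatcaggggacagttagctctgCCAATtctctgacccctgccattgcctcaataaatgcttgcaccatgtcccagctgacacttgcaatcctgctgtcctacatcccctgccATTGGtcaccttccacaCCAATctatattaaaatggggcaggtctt
In the Insig1 run, CCAAT lies on the opposite strand (ATTGG) at -216, GGGCGG matches at 3 places and CACGTG lies at -101, counted back from the start. In the Srebf2 run, TCACCCCA lies at -162, ATTGG follows at -135 and GGGCGG matches at 4 places. The Scap run before its first start holds none of the motifs. CACGTG lies 29 bases into the transcript of that start, which is -40 from its second. The run before the second start of Scap, not printed here, also holds GGGCGG at -30. The runs of Insig2 hold GGGCGG once, GGGCGG once and CCAAT at 3 places. Genes that did not pass in the test above hold such matches too, in runs not printed here. Srebf1 has CCAAT at 1 place and GGGCGG at 2 before start 1. Before its start 2 GGGCGG matches at 2 places, and before its start 3 CCAAT at 1. Mbtps1 has GGGCGG at 1 place and Mbtps2 none of the motifs. Among the 32851 RefSeq windows of 300 bases (250 before a start and 50 after), CCAAT was found in 37.4%, GGGCGG in 35.7%, CACGTG in 7.15% and TCACCCCA in 1.56%. The longer forms TCACNCCAC (1.24% of windows) and ATCACGTGA (0.317%) matched in 0 of the 12 windows of the 7 genes; the first shares its start with TCACCCCA and the second contains CACGTG. The short forms TCACCCCA and CACGTG were chosen after the windows had been seen, and a match is a description of letters and not of binding.

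Among the ER anchors, Insig1 showed the widest separation. Insig1 encodes the retention protein that is itself a transcriptional target of SREBPs. It lies on chromosome 5 from 28071412 to 28078662 (GRCm38.p6) and is read by 1 probe set, 1454671_at. LF mice ran from -34292 to -18384 millionths with a median of -21396, and HF mice from -2298 to 3552 with a median of -546. The lowest HF mouse stood above the highest LF mouse, and LF mouse 1 was lowest of all. The deposited means were 9.186 ± 0.0061 in LF and 9.209 ± 0.0023 in HF (SD, n = 6). The difference was 4.65 pooled SDs (95% interval 2.36 to 6.88; limma, Benjamini-Hochberg adjusted p = 0.00218). It stayed past the threshold with each mouse left out in turn (4.34 to 7.18) and under every other setting tried.

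Insig2 moved the opposite way with all of its probe sets. Insig2 encodes the second retention protein, and in rodent liver it is known for a transcript that insulin lowers and fasting raises. The gene lies on chromosome 1 from 121304353 to 121332662. Its representative probe set, 1417982_at, ran from 7917 to 17168 millionths in LF (median 11794) and from -5936 to 7760 in HF (median 425). The groups did not overlap, but the highest HF mouse, mouse 1, came close to the lowest LF mouse, mouse 4. The gene fell by 2.68 pooled SDs in HF (95% interval -4.21 to -1.09; limma, Benjamini-Hochberg adjusted p = 0.0345). The probe set 1417980_a_at ran from 12171 to 22034 millionths in LF and from -7886 to 9969 in HF, a difference of -3.00 (-4.64 to -1.31). The probe set 1417981_at ran from 16069 to 31005 in LF and from -11193 to 12602 in HF, a difference of -3.08 (-4.74 to -1.36). Neither overlapped between the groups, and both passed over all probe sets (limma, Benjamini-Hochberg adjusted p = 0.0303 and 0.0272). Their calls were lost too with single mice left out: for both without LF mouse 1, 3, 5 or 8 or HF mouse 2, 3 or 8, and for 1417980_a_at also without HF mouse 4 (adjusted p up to 0.0831 and 0.0748). The 3 probe sets ordered the mice alike: deviations from the group means correlated at 0.989 to 0.992 over 12 mice, as a description of probe sets that read 1 gene in the same RNA. The difference stayed negative in every setting, but the gene missed the threshold without LF mouse 1, 3 or 5 or HF mouse 2, 3, 4 or 8, with adjusted p between 0.0618 and 0.0811. The annotation does not assign these probe sets to single transcripts of Insig2.

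Srebf2, the factor of the cholesterol genes and, by way of its own sterol element, known as a target of itself, was read by a pair of probe sets with the same direction. It lies on chromosome 15 from 82147269 to 82205379. Its probe set 1426744_at ran from -273 to -217 millionths in LF (median -228) and from -111 to 51.1 in HF (median 27.5). No HF mouse fell within the LF range, and LF mouse 2 and HF mouse 4 were lowest in their groups. The difference was 4.37 pooled SDs (2.19 to 6.51; limma over all probe sets, Benjamini-Hochberg adjusted p = 0.00466). It stayed positive and past the threshold in every setting, at 2.17 after quantile normalisation, 3.34 after centring on column medians and 4.10 to 7.17 with each mouse left out. The probe set 1452174_at, which represents the gene, ran from -13.4 to -7.85 millionths in LF (median -9.66) and from -4.96 to 3.91 in HF (median 0.575). Its groups did not overlap either, and the difference was 2.84 (1.203 to 4.43; limma, Benjamini-Hochberg adjusted p = 0.0279), with the sign turned after quantile normalisation (-2.82) and after centring on column medians (-1.33). That difference, 1.04e-05 on the log2 scale, lies under the gap of 3.36e-05 between the column medians of HF and LF. Without LF mouse 1, 3 or 5 or HF mouse 1 or 8 its adjusted p lay between 0.0521 and 0.0664.

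Scap, the escort, gave an answer that differed between its probe sets. The gene lies on chromosome 9 from 110333288 to 110384949. The representative probe set 1433520_at ran from -14.2 to -7.04 millionths in LF (median -11.5) and from -3.98 to 5.09 in HF (median 0.227). The groups did not overlap, and the difference was 3.08 pooled SDs (1.36 to 4.74; limma, Benjamini-Hochberg adjusted p = 0.0179), with the sign turned after centring on column medians (-1.34). In rank this probe set spanned 0 places among all probe sets over the 12 arrays, so quantile normalisation left no value to compare. The other probe set, 1442885_at, ran from -8.85 to 3.26 millionths in LF and from -11.1 to 5.86 in HF, with HF mouse 4 lowest of all. Its groups overlapped, and the difference of 0.75 (-0.36 to 1.83) did not pass (limma, Benjamini-Hochberg adjusted p = 0.604). By the same test 1442885_at passed with its sign turned after quantile normalisation (-2.83, adjusted p = 0.00779) and after centring on column medians (-1.63, adjusted p = 0.0118). Deviations of the pair correlated at only 0.0839 over 12 mice. With both probe sets averaged, Scap had a difference of 2.20 and no longer passed (adjusted p = 0.0673), and without LF mouse 3 or 5 or HF mouse 4 the adjusted p of the representative probe set was 0.0506 to 0.0509.

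Srebf1, the factor of the fatty acid synthesis genes, showed no difference between LF and HF that the arrays could resolve. It lies on chromosome 11 from 60199084 to 60224186, and its 1 probe set, 1426690_a_at, comes without an assignment to the long or the short isoform. LF mice ran from -552 to 679 millionths (median -93.9) and HF mice from -533 to 578 (median -56.3). The ranges lay almost on top of each other. The standardized difference was 0.047 with an interval of -0.998 to 1.09 (limma, Benjamini-Hochberg adjusted p = 0.981).

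The proteases did not pass either. Mbtps1, the serine protease that makes the first cut, lies on chromosome 8 and is read by 3 probe sets. Its representative probe set 1448240_at ran from -3.51 to 2.32 millionths in LF and from -3.92 to 4.51 in HF, a difference of 0.25 (-0.81 to 1.29). The other 2 had 0.076 and 0.56, and the 3 probe sets did not order the mice alike (r between -0.38 and 0.21 over 12 mice). Mbtps2, the zinc protease that makes the second cut inside the membrane, lies on the X chromosome and ran from -2.61 to 13.6 millionths in LF and from -7.61 to 7.81 in HF. Its difference was -0.91 (-2.01 to 0.23; limma, Benjamini-Hochberg adjusted p = 0.453). After centring on column medians Mbtps2 passed at -2.40, and Mbtps1 passed with its sign turned (-1.89).

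Exact two-sided permutation tests over all assignments of the 12 mice gave 0.00216, the smallest value they can reach, for Insig1, for both probe sets of Srebf2, for the 3 of Insig2 and for 1433520_at of Scap. For the other probe sets they gave 0.115 to 0.944. Groups without overlap were seen for 4 of the 7 genes, 3 higher and 1 lower in HF, against 2.22% of all genes (0.918% higher and 1.3% lower), and for 7 of 13 probe sets, against 1.57% of all probe sets. For groups without overlap the exact test always gives its smallest value, so those p-values repeat the overlap and measure no spread. The limma p-values rest on the spread between these mice within 1 joint processing. That spread depends on the processing: the SD of Insig1 over the same HF arrays was 2289 millionths beside LF and 234 beside HF+P.

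**Figure D2:**
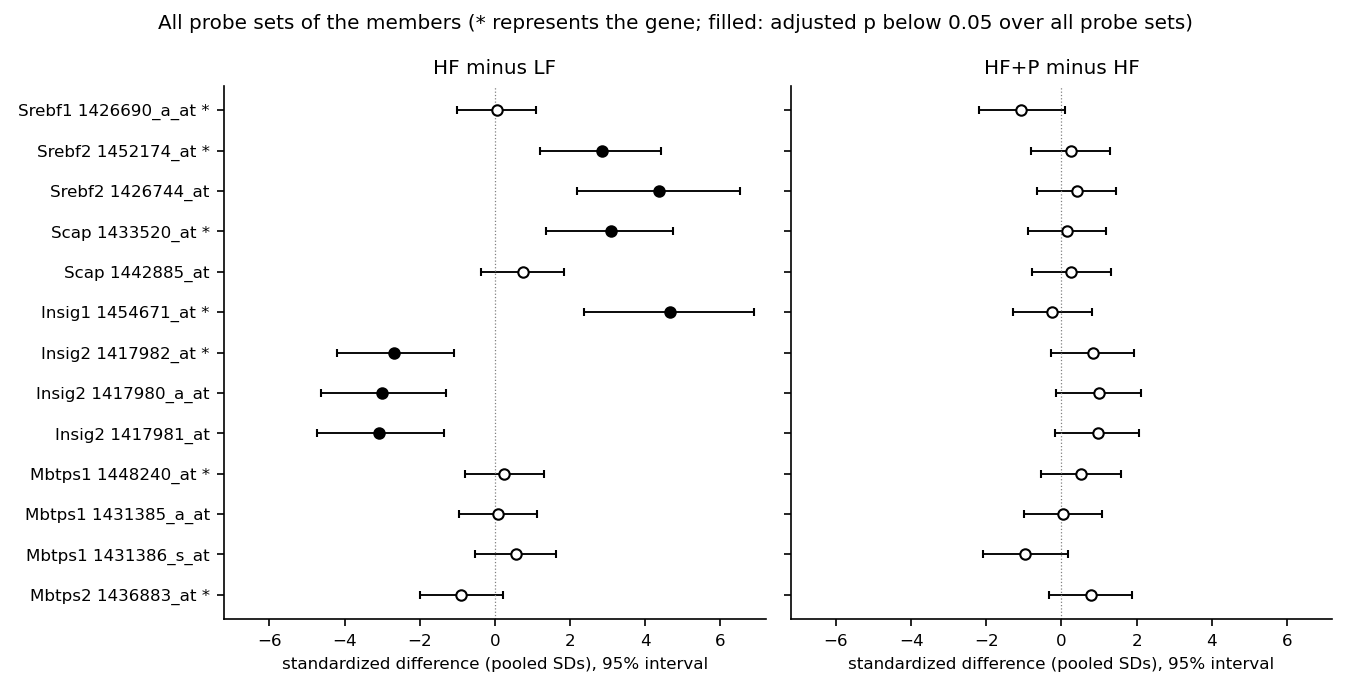
Standardized difference with its 95% interval (horizontal axis, pooled SDs) for each of the 13 probe sets, HF minus LF on the left and HF+P minus HF on the right; filled points passed over all probe sets and a star marks the probe set that represents a gene. On the left the probe sets of Insig2 lie at -3.08 to -2.68 and those of Srebf2 at 2.84 and 4.37. The pair of Scap lies apart at 3.08 and 0.75, and on the right 0 points passed. After centring on column medians 1452174_at of Srebf2 had -1.33 and 1433520_at of Scap -1.34, against 2.92 and 3.06 with the median deviation. After quantile normalisation 1452174_at had -2.82 and 1442885_at of Scap -2.83.

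The genes around the pathway were read from lists put together by function, with earlier results of these data known, so the direction of a list is not independent evidence. Among 17 measured cholesterol synthesis genes, the known targets of SREBP-2, 16 rose in HF, 1 did not pass and 0 fell; their median was 3.96 SDs against 0.011 over all genes, and after centring on column medians 1 fell. Msmo1, a C-4 methylsterol oxidase (10.1; limma, Benjamini-Hochberg adjusted p = 7.31e-06), and Lss, lanosterol synthase (9.99), were at the top, followed by Cyp51, the lanosterol demethylase (8.84), and Idi1, isopentenyl diphosphate isomerase (7.80). The score of the list ran from -5.94 to -5.07 in LF and from -0.80 to 0.52 in HF, and the groups did not overlap. The score averages these same genes, so its separation repeats their calls.

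Other sterol-responsive genes split. Of 6 measured, 2 rose and 1 fell (0 after quantile normalisation, 3 after centring on column medians), with a median of 0.28: Tmem97, a sterol-binding ER protein, had 5.07 and Stard4, a cytosolic cholesterol carrier, 4.25, while Rnf145, an ER ubiquitin ligase that acts on Scap, fell by 2.37 (limma, Benjamini-Hochberg adjusted p = 0.0488) with groups that overlapped. The call of Rnf145 held without LF mouse 1 or HF mouse 5 and was lost when any other mouse was left out (adjusted p = 0.0685 to 0.114). Of 18 lipogenic genes, the known targets of the short Srebf1 isoform, 1 rose and 2 fell, with a median of 0.064; after centring on column medians 4 rose and 6 fell. Elovl5, which lengthens polyunsaturated fatty acids, fell by 2.86 and Acacb, a carboxylase that makes malonyl-CoA at mitochondria, fell by 2.53, while Acss2, which makes acetyl-CoA in the cytosol, was 2.62 SDs higher, or -2.56 after quantile normalisation. The call of Elovl5 was lost without LF mouse 1, 3 or 5 or HF mouse 2, 4 or 8 (adjusted p = 0.0532 to 0.0644). That of Acacb was lost without LF mouse 1, 3, 5 or 8 or HF mouse 1, 2, 4, 5 or 8 (0.0569 to 0.0940), and that of Acss2 without LF mouse 1, 3 or 5 or HF mouse 1 to 5 (0.0552 to 0.0811). Fasn, fatty acid synthase (1.57), and Scd1, stearoyl-CoA desaturase (-1.38), did not pass, but did after centring on column medians (1.17 and -1.85).

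Genes that degrade, retain or carry the complex were read next, where 1.82% of all genes passed. Of 17 ER degradation and retention partners 0 rose and 1 fell (median 0.059), Erlin2, a scaffold that helps to degrade sterol-regulated ER proteins, at -3.25 (limma, Benjamini-Hochberg adjusted p = 0.0146). In this list 3 fell after quantile normalisation, and 1 rose and 14 fell after centring on column medians, where 15857 of 18193 genes fell. Of 17 genes of COPII vesicles and the Golgi 0 rose and 2 fell (median 0.022), while 0 fell after quantile normalisation and 16 after centring on column medians. They were Paqr3, known to tether Scap and SREBP at the Golgi (-2.72, adjusted p = 0.0321), and the coat subunit Sec23a (-2.60, adjusted p = 0.0376), whose groups overlapped. The call of Paqr3 was lost without LF mouse 1, 3 or 8 or HF mouse 1, 2, 4 or 8 (0.0509 to 0.0728), and that of Sec23a held only without LF mouse 4 or HF mouse 8 (0.0545 to 0.0819 without any other). Under quantile normalisation Erlin2, Paqr3 and Sec23a had -1.18, -0.42 and -0.23. Among 8 other substrates of the site-1 and site-2 proteases 0 passed (median -0.031), including Atf6, the ER stress sensor cut by both proteases (0.70); 1 fell after quantile normalisation and 7 after centring on column medians. Among 18 transcriptional and nuclear regulators 0 passed (median -0.25), including Nr1h3, the oxysterol receptor LXR-alpha that drives Srebf1 (0.36, or -1.88 after centring on column medians). In that list 1 rose and 2 fell after quantile normalisation, and 12 fell after centring on column medians.

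**Figure D3:**
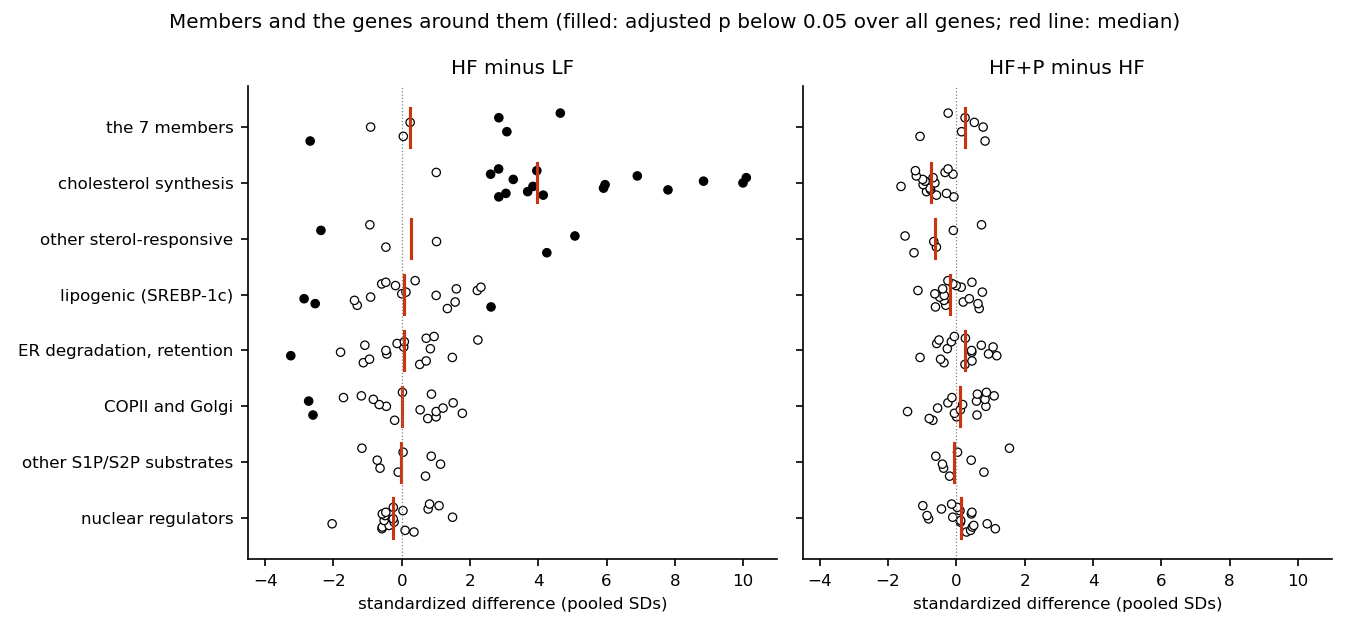
Standardized difference in pooled SDs (horizontal axis) of each gene in 8 rows of genes, HF minus LF on the left and HF+P minus HF on the right; filled points passed over all genes and a red line marks the median of a row. On the left the cholesterol synthesis row has a median of 3.96 and the lipogenic row one of 0.064, and on the right the cholesterol synthesis row lies wholly below 0 with a median of -0.75 and 0 genes passed.

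Yam propagule feeding was compared within high-fat food to read what the powder added. None of the 7 genes passed the test: 0 of 7 genes and 0 of 13 probe sets passed in limma with Benjamini-Hochberg adjustment, where 1 of 18193 genes (0.0055%) and 1 of 45037 probe sets (0.00222%) passed. At an unadjusted p under 0.05 the count was 0 for the 7 genes and 1304 (7.17%) for all genes. Groups overlapped for every one of the 13 probe sets, against 0.374% of genes (0.192% higher and 0.181% lower) and 0.355% of probe sets without overlap. In every other setting and with each mouse left out, 0 of the 7 genes passed.

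Srebf1 had the largest standardized difference of the 7 in size. HF mice ran from -702 to 775 millionths (median -77.1), and HF+P mice from -1164 to -161 (median -417). All 6 HF+P mice lay under the HF mean and 2 of them lay under every HF mouse. The difference was -1.06 (-2.18 to 0.099; limma, Benjamini-Hochberg adjusted p = 0.703; exact two-sided permutation p = 0.0779). The interval reaches from a fall of more than 2 SDs to no difference.

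Neither Insig gene passed, and the interval of each spanned both signs. The 3 probe sets of Insig2 had 0.84, 1.01 and 0.96, all toward higher values in HF+P. For the representative probe set, HF mice ran from -2655 to 3732 millionths (median 83.5) and HF+P mice from -1487 to 5609 (median 2100). The groups overlapped, with 2 of 6 HF+P mice above every HF mouse (-0.28 to 1.93; limma, Benjamini-Hochberg adjusted p = 0.756; exact two-sided permutation p = 0.119). Insig1 had -0.24 (-1.28 to 0.82; adjusted p = 0.943), and HF+P mice were spread from -1213 to 611 millionths against -239 to 365 in HF. HF+P mouse 3 was lowest and mouse 4 highest. With each mouse left out, the difference of Insig1 ran from -0.56 to 0.24, so its direction was not settled.

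For Srebf2, 1452174_at had 0.26 (-0.80 to 1.30) and 1426744_at had 0.41 (-0.66 to 1.46). HF+P mouse 4 was highest with both, at 9.06 and 134 millionths. Scap had 0.15 (-0.90 to 1.196), with HF+P mice from -21.9 to 21.2 millionths around HF mice from -8.69 to 9.25. Mbtps1 had 0.53 (-0.55 to 1.58) with its representative probe set and 0.043 and -0.98 with the others, and Mbtps2 had 0.79 (-0.33 to 1.87). The intervals are wide, so similar levels of these genes in HF and HF+P are not shown.

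Around the pathway 0 genes of any list passed in HF+P against HF. The 17 cholesterol synthesis genes all had lower means in HF+P, from -1.62 to -0.072 with a median of -0.75, against a median of 0.022 over all genes; of those named here, Lss had 0.14 after quantile normalisation. Their score ran from -0.56 to 0.42 in HF (median 0.15) and from -1.87 to 0.74 in HF+P (median -0.92). The groups overlapped, with HF+P mouse 2 lowest and HF+P mouse 4, the mouse that was also highest for Insig1 and Srebf2, highest. Medians were -0.62 for other sterol-responsive genes, -0.18 for lipogenic genes, 0.25 for ER partners, 0.12 for COPII and Golgi genes, -0.082 for other protease substrates and 0.12 for nuclear regulators. Quantile normalisation turned the signs of Tmem97 (-1.50 to 0.46), Stard4 (-1.24 to 0.79), Rnf145 (-0.088 to 0.34), Acss2 (-0.61 to 0.99) and Atf6 (-0.20 to 0.48). Fasn had 0.20, Scd1 -0.36, Paqr3 0.59, Atf6 -0.20 and Nr1h3 0.30. Macrophage markers were lower in HF+P for 8 of 8 genes (median -0.66, 0 passed), with scores from -1.80 to 0.23 in HF+P and from -1.09 to 1.87 in HF; their part in these values was not tested.

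The 6 HF arrays, processed in both value sets, show how far the values of these genes depend on the arrays beside them. The order of the mice was nearly kept: over 6 arrays the correlation between the value sets ran from 0.907 for Scap to 0.99998 for 1426744_at of Srebf2, where the median over all genes was 0.959 and 71.3% of genes reached 0.9. The spread was not kept. The SD of Insig1 over the same 6 HF arrays was 2289 millionths beside LF and 234 beside HF+P, a ratio of 9.80, and the HF mean moved from 9.209 to 9.997. Representative probe sets of Insig2 and Mbtps2 had ratios of 2.14 and 2.02, and those of Srebf2, Srebf1, Mbtps1 and Scap 0.79, 0.74, 0.53 and 0.49. Over all genes the median ratio was 1.02, with the 5th percentile at 0.274 and the 95th at 3.94. Millionths from the 2 value sets are thus not on 1 scale, and Insig1 lies beyond that range.

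**Figure D4:**
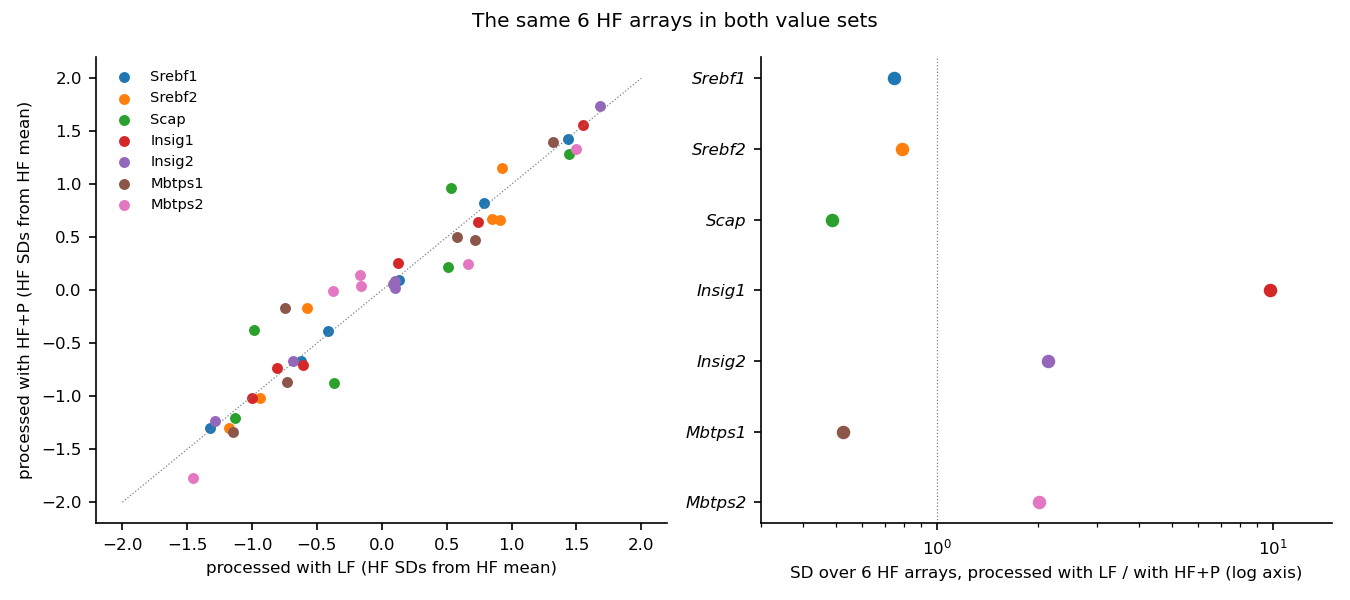
Left, value of each HF mouse minus the HF mean in HF SDs, as processed with LF (horizontal axis) and with HF+P (vertical axis), 1 colour per gene and 6 points each; right, the ratio of the SDs over these 6 arrays in the 2 value sets (log axis). Points follow the diagonal (correlation 0.907 to 0.999 for the probe sets shown), while the SD ratio runs from 0.49 for Scap to 9.80 for Insig1.

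Genes that varied most like each member from mouse to mouse were found from deviations from the group mean over the 12 LF and HF arrays. They were picked as the highest correlations among all genes, so the values are a description, and the arrays share 1 joint processing. Srebf1 varied most like Hyi (r = 0.96), Prdx2 (0.96) and Abca8a (0.95), which had r = 0.39, 0.48 and 0.03 over the 6 HF+P mice. Srebf2 varied most like 2610035F20Rik (0.93), Sars (0.90) and Gm15886 (0.89), with 0.34, -0.21 and 0.51 in HF+P. In the HF+P mice, which had not been used to pick these 6 genes, all 6 values were lower. The same held for every gene named with the other members below. Values picked as the highest tend to be lower in other mice, so no conclusion is drawn from the drop.

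Scap varied most like Sdccag8 (0.94), Prkcz (0.91) and Cacfd1 (0.90), with 0.59, 0.64 and -0.34 in HF+P. Insig1 varied most like Prickle1 (0.89), Rwdd2b (0.89) and Gm17586 (0.87), with -0.76, 0.20 and 0.22 in HF+P. Insig2 varied most like Clpx, a mitochondrial protease subunit (0.95), Caprin1 (0.94) and Gja1 (0.93), with 0.89, 0.80 and 0.20 in HF+P. Clpx and Caprin1 had the highest HF+P values of the 21 genes named here. They are singled out after the values were seen, each over only 6 mice, and are a description. Mbtps1 varied most like Akap1 (0.91), Uox (0.91) and Exd2 (0.89), with 0.75, 0.17 and -0.00064 in HF+P. Mbtps2 varied most like Ago3 (0.90), Dtwd2 (0.88) and Rnf103 (0.87), with 0.28, -0.42 and -0.073 in HF+P. None of the 21 genes passed in HF against LF, where 1.82% of all genes passed, so that count is no result about them.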

How the data were processed

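Liver RNA of LF, HF and HF+P mice was read on Affymetrix 3' arrays, 6 mice per group. The table deposited by the authors holds values, handled as log2, for 45101 probe sets in 24 columns, the HF arrays appearing in both value sets. R 2.7.2 was used, per the submitters' processing notes; how they were summarised and normalised, and the log base, is not stated in the labels used here, and log2 was taken from the range of 5.36 to 15.0. The 6 arrays per group limit the precision.

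Gene names came from the platform annotation (34958 with 1 symbol, 932 with several, 9211 with none); 64 control probe sets and 1 probe set that lists a member beside another symbol were left out. For each gene the probe set of highest mean over the 24 columns was used. Each comparison was fitted within its value set in limma 3.58.1 (R 4.3.3; lmFit and eBayes, two-sided, no covariate), with Benjamini-Hochberg adjustment over 18193 genes, or 45037 probe sets, and a threshold of 0.05. The fits were tested on simulated data. List scores are means of deviations from the HF mean in pooled SDs.

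Mouse numbers recur between groups with no pairing given in the labels, and mice were handled as separate animals. Named were the 7 members, up to 4 genes past the threshold per list, several genes always followed (some not analysed here) and the 3 genes most like each member. The members and the lists were chosen with earlier results of these data known. Alternatives were quantile normalisation, centring, array weights, limma's trend and robust options, other ways to represent genes, a filter on dim genes, a block for the mouse number and the omission of each mouse in turn. No table of protein sequences was used.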

Additional observations from a re-analysis of the deposited data

Results flagged for a closer look

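Of 52 groups of 6 mice tested over the 13 probe sets, 6 held a mouse whose gap to the nearest other mouse, as a share of the group's range, was above the critical value of 0.625; chance gives about 1 in 20. In LF against HF these were LF mouse 2, lowest for 1426744_at of Srebf2 (0.6497), HF mouse 8, highest for 1431386_s_at of Mbtps1 (0.6519), and HF mouse 4, lowest for 1442885_at of Scap (0.6268). In HF+P against HF these were HF+P mouse 1, highest for 1431385_a_at of Mbtps1 (0.7605), HF+P mouse 7, lowest for 1431386_s_at of Mbtps1 (0.6487), and HF+P mouse 4, highest for 1452174_at of Srebf2 (0.7594).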

How the results depend on the processing

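In HF against LF, 332 genes and 302 probe sets passed. Quantile normalisation gave 3345 genes (131 higher, 3214 lower) and 6734 probe sets, centring on column medians gave 16088 (231 higher, 15857 lower) and 40266, and dropping the dimmer genes gave 499 genes. With each mouse left out, 131 to 357 genes (198 or fewer without LF mouse 1, 3, 5 or 8 or HF mouse 1, 2, 3, 4 or 8), 131 to 325 probe sets and 1 to 4 of the 7 member genes passed. The count of 4 members fell to 1 without LF mouse 3 or 5 and to 2 without LF mouse 1, HF mouse 4 or HF mouse 8. In HF+P against HF, 1 gene and 1 probe set passed; 0 genes passed after quantile normalisation, without the dimmer genes or with the replicate block, and 1 to 2 genes and 0 to 2 probe sets with each mouse left out.

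Among values of HF against LF past the threshold in either setting, signs turned after quantile normalisation for Acss2 (-2.56), Srebf2 (-2.82), 1431386_s_at of Mbtps1 (-2.02) and 1442885_at of Scap (-2.83). They turned after centring on column medians for Nr1h3 (-1.88), Srebf2 (-1.33), Scap (-1.34), Mbtps1 (-1.89), 1431385_a_at (-2.01) and 1431386_s_at (-1.96) of Mbtps1, and 1442885_at of Scap (-1.63). Values past it in neither also turned: Srebf1 (-0.46), Mbtps1 (-0.96), Fasn (-0.24), Nr1h3 (-0.50) and Atf6 (-0.47) with the former, and Srebf1 (-0.020) and Atf6 (-0.17) with the latter. Column medians differed between HF and LF by 3.36e-05, the median deviation of probe sets by -2.52e-08, and centring on the latter left 4 members called.

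Deviations of same-numbered mice correlated at -0.132 to 0.137 for HF and LF and at 0.046 to 0.201 for HF+P and HF, so not every pair was over 0.1 and the numbers were not taken as pairs. Of the HF mice, 4 of 6 correlated best with their own number in LF, and 3 of 5 shared numbers did so in HF+P and HF, a hint from the data and not from the design. With the mouse number as a replicate block, 261 genes, 246 probe sets and 3 of the 7 members passed in HF against LF, Scap being lost (adjusted p = 0.0866); Elovl5, Erlin2 and Sec23a were lost too (0.0742, 0.0925 and 0.0745). In HF+P against HF, HF mouse 5 and HF+P mouse 7 have no partner and add nothing to that fit.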
